A study of Mus musculus with 10 samples.

Results

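Transcripts of B cells and plasma cells were measured in murine pancreatic tumors grown in mice on regular or dextrose water. The 9 genes were the rows of the deposited table whose mouse Ensembl identifiers map to Cd79a, Cd79b, Ms4a1, Blk, Pax5, Ighm, Igkc, Jchain and Mzb1. They were 9 of the 55359 genes in the table, and all 9 were among the 24560 that were tested, whose average level over the tumors reached 1 normalized count or more. Luciferase-expressing KPC K8484 cells, a single murine pancreatic cancer line from a Pdx1-Cre model, were injected into the pancreas of immunocompetent C57BL/6 mice (C57BL/6 J in the methods) at 10 weeks of age. Each of 5 CTRL tumors came from a normoglycemic mouse that drank regular water, and each of 5 D30 tumors from a mouse made hyperglycemic with 30% dextrose water, for 14 days according to a legend of the study. For orthotopic experiments the methods state that mice were randomized to treatment once imaging had shown a tumor. They also describe dextrose water begun before implantation for indicated experiments, without saying whether these tumors were among them. Bulk RNA was sequenced from every tumor, and the comparison asks how hyperglycemia changes the tumor's transcriptome. The sample titles call these tumors PDX although their source is a mouse line. Male and female mice were used in equal numbers according to the methods, but the sex of the mouse behind each column was not given. Tumors are named here by their column, N for CTRL and T for D30. The letter N matches normoglycemic, and T was the only other letter for the only other group.

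B cells recognise antigen through a membrane immunoglobulin that signals through the CD79 heterodimer. After activation they can switch the class of their heavy chain and become plasma cells, which fill their cytoplasm with immunoglobulin transcripts. Pancreatic tumors hold varying numbers of both cell types, scattered or in lymphoid aggregates. In bulk tumor RNA, fewer cells of a type and less RNA per cell cannot be told apart.

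Sequencing depth was similar among tumors, with 29915331 to 42122304 recovered reads in CTRL and 29192261 to 37126175 in D30. A normalized count is a tumor's read count divided by its size factor, and 1 read was worth 0.723 normalized counts in N2 and up to 1.16 in T4. Some libraries stood apart. T4 held 841 reads of Y-linked genes, while the other 9 tumors held 0. The equal use of male and female mice stated in the methods is thus not seen in the Y-linked reads. T5 had the fewest genes detected (20482, against 25912 in N2) and a summed level of spleen and red cell genes of 187909 normalized counts, whereas no other tumor exceeded 12405. Most of the T5 sum was haemoglobin, with Hba-a1 at 83007 and Hbb-bs at 84522. Of the other genes in that list, Spic and Tlx1 were at 0 in T5 and Nkx2-5 at 13.7. The median log2 fold change of all tested genes was -0.06. Leaving out T4 raised the number of genes called among all genes from 678 to 1530 and leaving out N2 lowered it to 270, so the fold change of each of the 9 genes was also computed without each library.

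None of the 9 genes passed limma's moderated test at a Benjamini-Hochberg adjusted p under 0.05, a threshold that 2.76% of all tested genes passed. At an unadjusted p under 0.05, 1 of the 9 passed, Pax5, against 17.3% of all tested genes. Mean log2 levels were lower in D30 for 6 genes, Igkc, Ighm, Jchain, Mzb1, Cd79a and Ms4a1, and higher for 3, Cd79b, Blk and Pax5. The median log2 fold change of the 9 genes was -1.70. Pax5 alone among the 9 did not overlap between groups, whereas 6.19% of all tested genes did not. On the recovered reads edgeR called 0 of the 7 genes it tested, against 3.96% of its 17127 genes, and DESeq2 called 1 of 9, Pax5, against 5.55% of its 33001 genes. The spread among tumors of a group exceeded the difference between groups for the immunoglobulin genes, as the plot of every tumor's level shows.

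**Figure D1:**
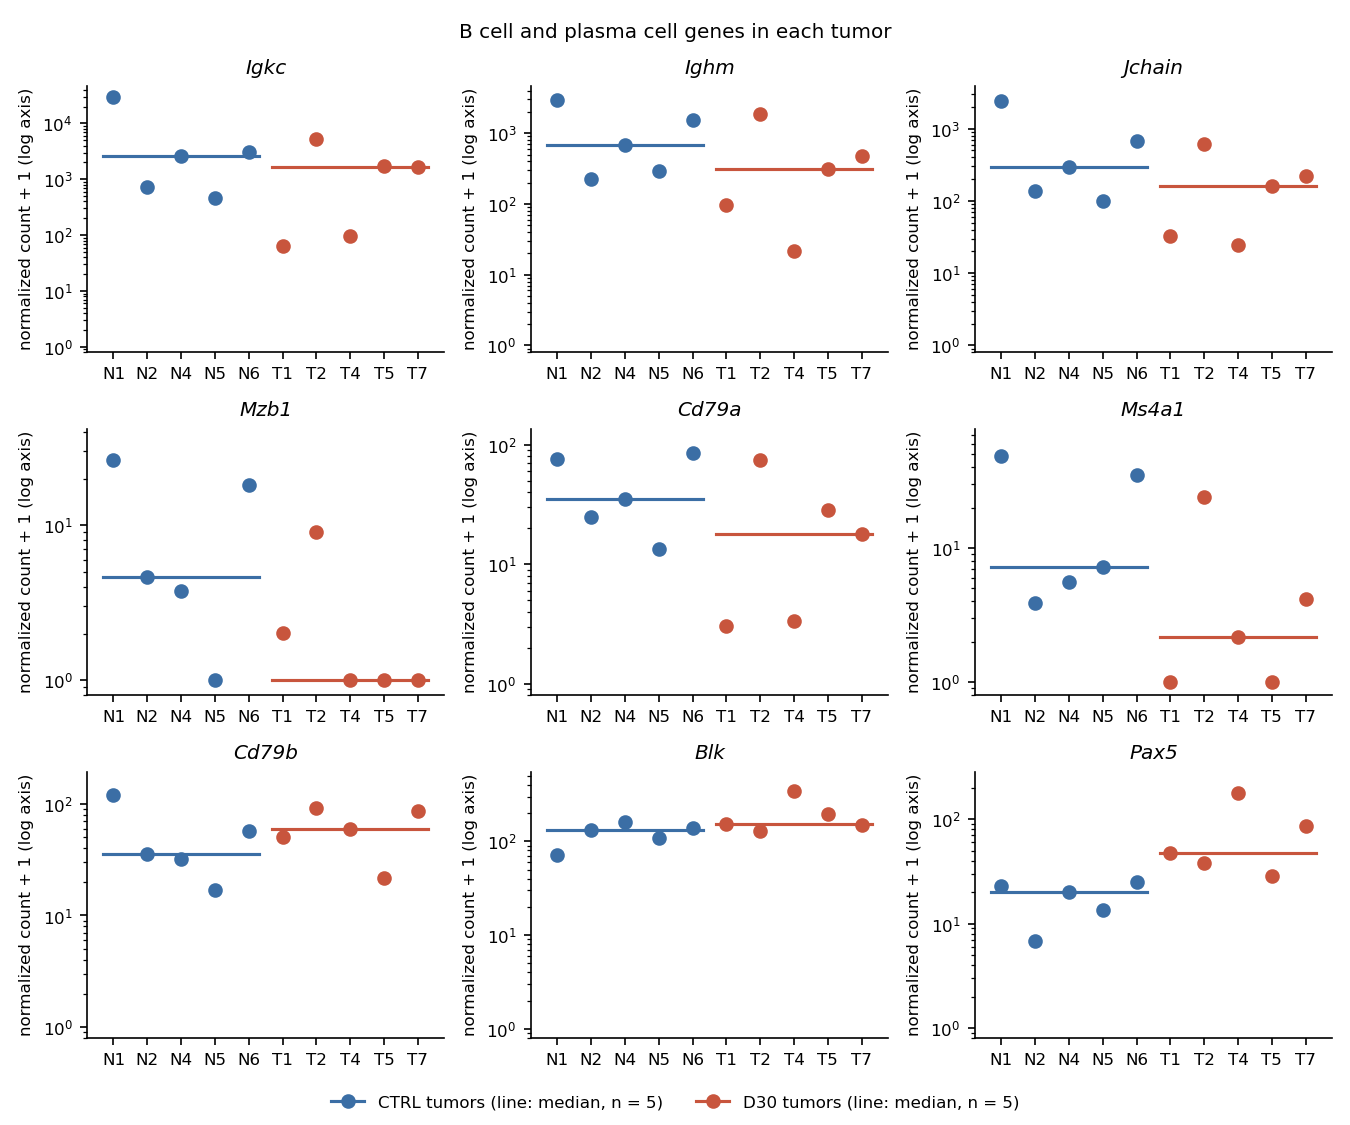
Level of each gene (normalized count + 1, log axis) in the 5 CTRL tumors (N, blue) and 5 D30 tumors (T, red), with a line at each group's median. For Igkc the lowest tumors are T1 and T4 and the highest is N1, and only for Pax5 do all 5 D30 tumors lie above all 5 CTRL tumors.

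Plasma cell transcripts varied most. Igkc, the constant region of the kappa light chain (IG_C_gene, chr6:70726435-70726966, plus strand, GRCm38), stood at 29103 normalized counts in N1, 739 in N2, 2608 in N4, 465 in N5 and 3042 in N6. In D30 it stood at 63.7 in T1, 5230 in T2, 96.0 in T4, 1731 in T5 and 1672 in T7. T2, T5 and T7 sat within the CTRL range, T1 and T4 below it, and the highest tumor held 457 times the level of the lowest. Mean levels were 7191 ± 12301 in CTRL and 1759 ± 2103 in D30 (SD, n = 5 each), and the log2 fold change was -1.94 with a standard error of 1.28 (limma, adjusted p = 0.474). It was -1.04 without N1, -1.12 without T1 and -1.27 without T4. A two-sided exact permutation test of the group means of the log2 values gave p = 0.254.

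Ighm encodes the heavy chain constant region of IgM (chr12:113418558-113422730, minus strand), the class carried by unswitched B cells. Its level was 2907 normalized counts in N1, 225 in N2, 691 in N4, 296 in N5 and 1547 in N6, and 94.6 in T1, 1872 in T2, 20.8 in T4, 311 in T5 and 472 in T7. N1 was again the highest and T1 and T4 the lowest, and the groups overlapped (log2 fold change -1.70, SE 1.02, limma adjusted p = 0.427). Without T4 the log2 fold change was -0.86, and it was -1.03 by both edgeR and DESeq2. Jchain joins IgM pentamers and IgA dimers for secretion and lies at chr5:88519809-88527891 on the minus strand. It reached 2443 normalized counts in N1, 138 in N2, 297 in N4, 100.04 in N5 and 681 in N6, and 31.9 in T1, 613 in T2, 23.1 in T4, 160.3 in T5 and 222 in T7. Here too T1 and T4 lay below every CTRL tumor and T2 near the top (log2 fold change -1.73, SE 0.965, limma adjusted p = 0.387, or -1.05 without N1). Mzb1, an endoplasmic reticulum chaperone of antibody-secreting and marginal zone B cells (chr18:35647267-35649367, minus strand), was close to the limit of detection. Its reads numbered 24 in N1, 5 in N2, 3 in N4, 0 in N5 and 20 in N6, and 1 in T1, 7 in T2 and 0 in T4, T5 and T7. Reads were thus 3 or fewer, the floor used here, in 6 of 10 tumors, and the fitted log2 fold change of -1.76 (SE 0.914, limma adjusted p = 0.348) depends on the added count of 1.

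Genes of the B cell surface gave few reads. Cd79a, the immunoglobulin-alpha chain of the antigen receptor (chr7:24897381-24902197, plus strand), stood at 74.7 normalized counts in N1, 23.9 in N2, 33.8 in N4, 12.4 in N5 and 83.9 in N6. In D30 it stood at 2.06 in T1, 73.3 in T2, 2.31 in T4, 27.5 in T5 and 17.0 in T7, where T1 and T4 held 2 reads each. The groups overlapped, with means of 45.7 ± 31.7 and 24.4 ± 29.3 (SD, n = 5 each) and a log2 fold change of -1.52 (SE 0.867, limma adjusted p = 0.400). This was -0.99 without T1, -0.89 by edgeR and -0.90 by DESeq2. Ms4a1 encodes CD20 and lies at chr19:11249675-11266241 on the minus strand. Its reads numbered 45 in N1, 4 in N2, 5 in N4, 7 in N5 and 40 in N6, and 0 in T1 and T5, 20 in T2, 1 in T4 and 3 in T7. T2 was the only D30 tumor above 3 reads, and with a log2 fold change of -2.05 (SE 0.963) the unadjusted p was 0.0526 and the adjusted p 0.295 by limma.

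Cd79b, the immunoglobulin-beta chain that pairs with Cd79a (chr11:106311341-106314762, minus strand), had another pattern. It stood at 119.9 normalized counts in N1, 34.7 in N2, 31.1 in N4, 15.9 in N5 and 56.5 in N6, and at 49.4 in T1, 90.5 in T2, 59.0 in T4, 20.6 in T5 and 85.2 in T7. The means were 51.6 ± 40.8 in CTRL and 60.9 ± 28.4 in D30 (SD, n = 5 each), and the log2 fold change of 0.39 (SE 0.547, limma adjusted p = 0.768) ran from 0.06 without N5 to 0.77 without N1, and was 0.21 without T2, 0.23 without T7 and 0.73 without T5. Cd79b reads per Cd79a read ranged from 0.673 to 1.61 in CTRL. In T1 the 2 genes had 48 and 2 reads and in T4 51 and 2, while the ratio was 5 in T7, 1.23 in T2 and 0.75 in T5. So in T1 and T4 Cd79b stood within the range of the other tumors, while its partner chain was at or below the floor of 3 reads.

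Blk, a Src family kinase of the B lineage (chr14:63372836-63417037, minus strand), stood at 70.5 normalized counts in N1, 130.1 in N2, 162 in N4, 108 in N5 and 137 in N6. Its levels in D30 were 152 in T1, 129 in T2, 345 in T4, 193 in T5 and 148 in T7. N1, the tumor with the most Igkc, had the least Blk, and T4, with less Igkc than any tumor but T1, had the most. The group means of 121 ± 34.3 and 194 ± 87.6 (SD, n = 5 each) differed by a log2 fold change of 0.63 (SE 0.329, limma adjusted p = 0.355), which became 0.39 without T4.

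Pax5, the transcription factor that holds B cell identity (chr4:44524757-44710487, minus strand), stood at 22.1 normalized counts in N1, 5.78 in N2, 19.2 in N4, 12.4 in N5 and 24.0 in N6. It stood at 46.3 in T1, 36.7 in T2, 177 in T4, 27.5 in T5 and 84.2 in T7, above the highest CTRL tumor in each. The means were 16.7 ± 7.51 and 74.3 ± 61.3 (SD, n = 5 each), with a log2 fold change of 1.90 (SE 0.550). By limma the unadjusted p was 0.0042 and the adjusted p 0.0899, by edgeR the adjusted p was 0.0599, and by DESeq2 it was 0.0028. The two-sided exact permutation p was 0.00794, the smallest that 5 tumors against 5 can give, without adjustment for the other genes. Without T4, the tumor with Y-linked reads, the log2 fold change was 1.51 (limma adjusted p = 0.0931). PAX5 protein is known to switch on Cd79a, and T4, with the most Pax5, had 2 Cd79a reads, at or below the floor. Which cells held the Pax5 transcripts was not tested.

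**Figure D2:**
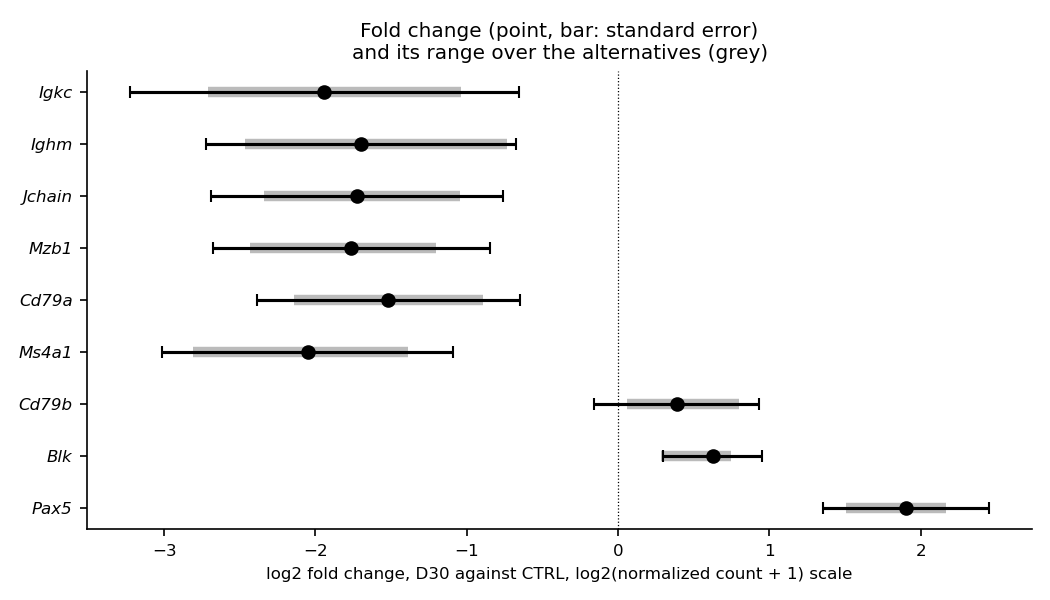
Log2 fold change of D30 against CTRL for each gene on the log2(normalized count + 1) scale (point, with its standard error as the bar) and its lowest to highest value over all alternatives (grey). The 6 genes from Igkc to Ms4a1 stay below 0 and Cd79b, Blk and Pax5 above 0 in each alternative, with Pax5 between 1.51 and 2.17.

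Levels of different genes were compared per length of exon and library size (RPKM). The median over the 10 tumors was 88.4 RPKM for Igkc, 6.17 for Ighm, 2.19 for Jchain, 1.63 for Blk, 0.989 for Cd79b and 0.515 for Cd79a. It was 0.0848 for Pax5, 0.0475 for Mzb1 and 0.0191 for Ms4a1. The ranges over tumors of neighbours in this order overlapped throughout. In these medians the 3 genes of secreted antibody stood highest, and Blk stood above both CD79 chains. Among the other markers of these cell types, the plasma cell receptor BCMA (Tnfrsf17) was at 0 in 8 tumors and at 1 read in N1 and N6. Small overlapping genes added little to these values, with at most 2 reads antisense to Ms4a1, at most 1 read in those within Pax5 and at most 6 reads in Gm30211 over Igkc.

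Across the 10 tumors, 5 of the other 8 genes went with Igkc on the log2 scale. Pearson's r was 0.98 for Jchain, 0.93 for Cd79a, 0.92 for Ighm, 0.76 for Ms4a1 and 0.69 for Mzb1. Their Spearman's rho were 0.96, 0.95, 0.96, 0.75 and 0.71. Permutation p adjusted over the 8 relations were 8e-05, 0.000347, 0.000347, 0.021 and 0.0432, and the raw p for Jchain of 1e-05 is the smallest that 100000 permutations can give. Cd79b (r = 0.39, rho = 0.45, permutation adjusted p = 0.305), Pax5 (r = -0.33, rho = -0.24, permutation adjusted p = 0.353) and Blk (r = -0.65, rho = -0.44, permutation adjusted p = 0.0581) did not pass. Without T1 and T4, the tumors farthest from the median of Igkc, r was 0.96 for Jchain, 0.90 for Ighm, 0.80 for Cd79a, 0.75 for Mzb1 and 0.65 for Ms4a1. The last of these no longer passed (n = 8, exact permutation adjusted p = 0.0947), whereas Cd79b now did (r = 0.77, exact permutation adjusted p = 0.034). Pax5 changed sign to 0.33 without these tumors. With each group's mean removed, r remained 0.98 for Jchain, 0.92 for Cd79a, 0.91 for Ighm and 0.71 for Ms4a1, while Mzb1 at 0.62 no longer passed (permutation adjusted p = 0.0901). It was 0.53 for Cd79b, -0.56 for Blk and -0.06 for Pax5, none of which passed. All of these genes were measured in the same libraries and share their depth and RNA quality.

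**Figure D3:**
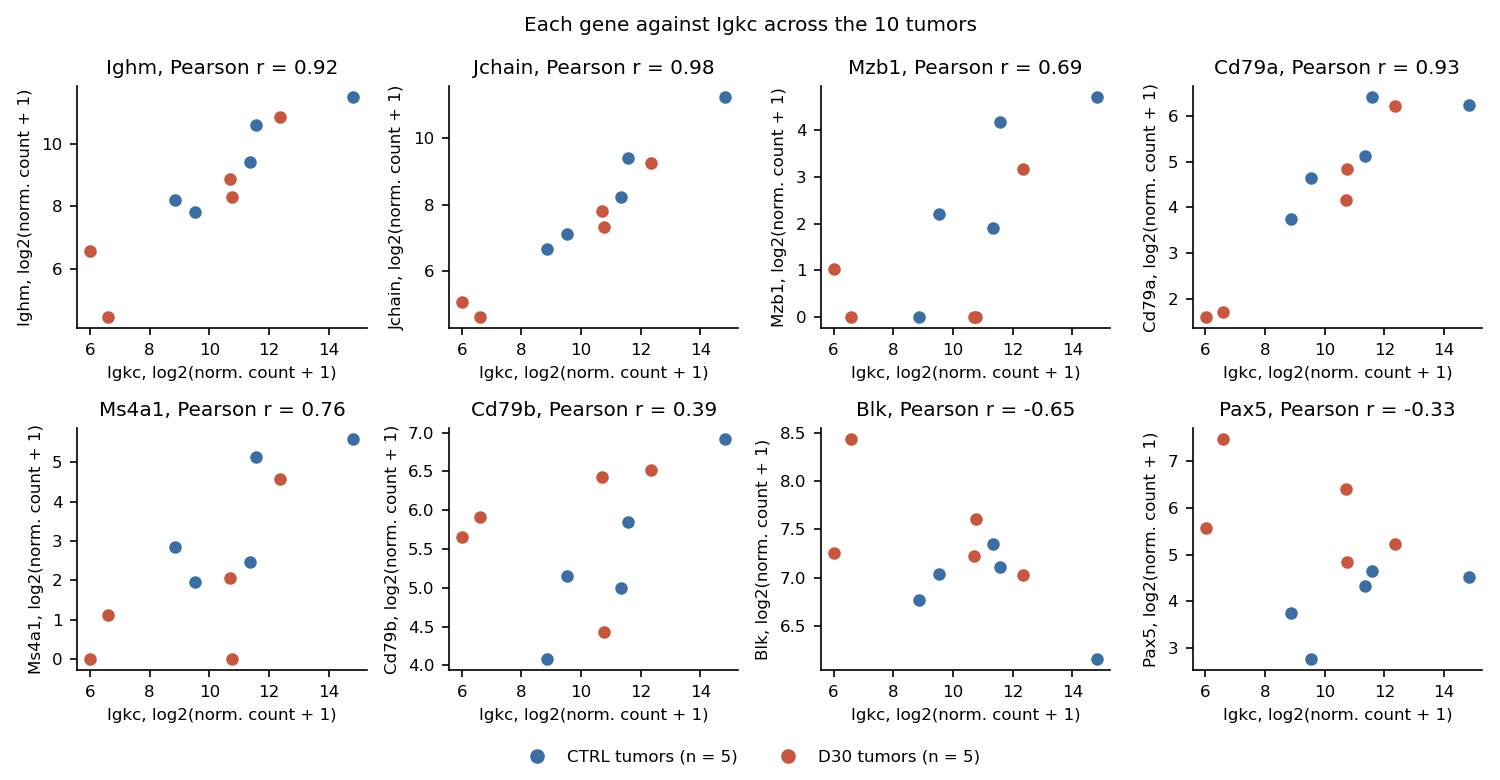
Each of the other 8 genes against Igkc, both as log2(normalized count + 1), with 1 point per tumor (CTRL blue, D30 red) and Pearson's r over the 10 tumors. Jchain (0.98), Cd79a (0.93) and Ighm (0.92) lie close to a line through both groups, and Blk (-0.65) and Pax5 (-0.33) do not rise with Igkc.

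The promoters of 3 of the 9 genes were found among the searched records of the RefSeq promoter table (GRCm38.p6), which runs from 250 bases before to 50 bases after the start. Whether that table holds promoters of the other members was not established. They are shown for a pair of genes that went with Igkc, Cd79a and Jchain, and for Pax5, which did not. The windows are chr7:24897247-24897546 on the plus strand for Cd79a, chr5:88527848-88528147 on the minus strand for Jchain and chr4:44710645-44710944 on the minus strand for Pax5, and capitals mark a motif match.
Cd79a: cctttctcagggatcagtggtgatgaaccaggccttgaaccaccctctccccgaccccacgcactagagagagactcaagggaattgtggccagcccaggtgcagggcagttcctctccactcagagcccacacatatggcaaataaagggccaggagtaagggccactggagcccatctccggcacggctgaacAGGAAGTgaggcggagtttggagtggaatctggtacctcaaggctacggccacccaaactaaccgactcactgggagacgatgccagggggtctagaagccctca
Jchain: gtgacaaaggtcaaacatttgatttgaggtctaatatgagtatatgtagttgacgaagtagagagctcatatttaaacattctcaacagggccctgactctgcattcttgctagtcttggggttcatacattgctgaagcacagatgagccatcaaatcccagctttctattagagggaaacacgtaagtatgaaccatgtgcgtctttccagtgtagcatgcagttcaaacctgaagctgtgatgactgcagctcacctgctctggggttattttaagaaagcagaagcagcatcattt
Pax5: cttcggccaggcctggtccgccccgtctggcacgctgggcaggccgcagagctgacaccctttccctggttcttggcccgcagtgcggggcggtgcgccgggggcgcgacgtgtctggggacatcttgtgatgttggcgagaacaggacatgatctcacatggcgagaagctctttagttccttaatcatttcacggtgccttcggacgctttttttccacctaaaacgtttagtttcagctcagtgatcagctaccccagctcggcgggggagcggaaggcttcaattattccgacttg
Both strands were searched for the octamer ATGCAAAT of immunoglobulin promoters, the EBF-type motif CCCNNGGGA and the ETS-type motif AGGAAGT. Only the ETS-type letters occurred, in Cd79a, 55 bases before the start, on the strand of the gene. The search took exact letters, so sites that vary from them were missed, and a missing match does not show that a site is absent. Of the 32851 promoters searched, 1.735% held the octamer, 6.557% the EBF-type and 9.351% the ETS-type motif. None of the motifs overlaps another in these windows, and a match describes only the letters present.

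Summed over all 432 annotated immunoglobulin genes and scaled to 1000000 reads of each tumor (RPM), immunoglobulin reads stood at 2698 RPM in N1, 87.9 in N2, 263 in N4, 56.9 in N5 and 425 in N6. In D30 they were 10.04 in T1, 581 in T2, 8.83 in T4, 172 in T5 and 167 in T7. From the poorest to the richest tumor the sum varied 305-fold, T1 and T4 lay below all CTRL tumors and the others within their range. The difference of the log2 means was -2.0 (two-sided exact permutation p = 0.238, adjusted over 4 immunoglobulin measures p = 0.794), and it was -1.17 without N1 and -1.26 without T4. All 12 immunoglobulin constant genes had a lower mean in D30 and 0 passed limma's test (1 at an unadjusted p under 0.05, Ighe). Ighe, the IgE heavy chain, had 0 to 6 reads in CTRL and none in any D30 tumor, which allows up to 3 reads per library, so no fold is given. For the other 11 the median log2 fold change was -1.70, from -2.41 for Ighg2c to -0.24 for Iglc2. Ighg1, Ighg2b and Ighg2c resemble one another in sequence, and their separate counts are uncertain.

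Immunoglobulin composition differed among single tumors more than between groups. Kappa made up 97.0 to 97.8% of light chain constant reads in N1, N2, N4 and N5, and 87.8% in N6 (95% Wilson interval 86.8 to 88.8, of 4049 reads). In D30 it made up 89.9% in T1 (80.5 to 94.998, of 69 reads) and 96.9 to 98.8% in the other 4 tumors. The group means differed by 0.563 percentage points (two-sided exact permutation p = 0.675, adjusted p = 0.802). Class-switched transcripts (IgG, IgA and IgE) made up 91.4% of heavy chain constant reads in N1, 80.8% in N2, 81.9% in N4, 63.7% in N5 and 72.7% in N6. Their share was 48.0% in T1 (40.8 to 55.3, of 179 reads), 78.5% in T2, 79.3% in T4 (69.6 to 86.5, of 87 reads), 90.2% in T5 and 83.0% in T7. With a difference of -2.29 percentage points (two-sided exact permutation p = 0.802) the groups overlapped, and without T1 the difference was 4.66.

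IgG took most of the heavy chain constant reads in N1, with 79.8% IgG and 11.6% Igha, in T5 with 69.0% and 21.2%, and in T2 with 50.5% and 27.9%. It was also the largest class in N5, with 40.2% IgG and 23.5% Igha, while IgG and Igha were close in T4 (40.2% and 39.1%) and T7 (41.7% and 41.4%). In N2, N4 and N6 Igha, the heavy chain of IgA, was the largest class at 47.0%, 48.2% and 43.8%. Ighm reached 51.4% in T1 and 35.5% in N5 and was 8.51 to 26.4% elsewhere. Ighd, the IgD chain of naive B cells, stayed at or below 1.10% in every tumor. Intervals and floors cover counting error only, since reads are not independent molecules.

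**Figure D4:**
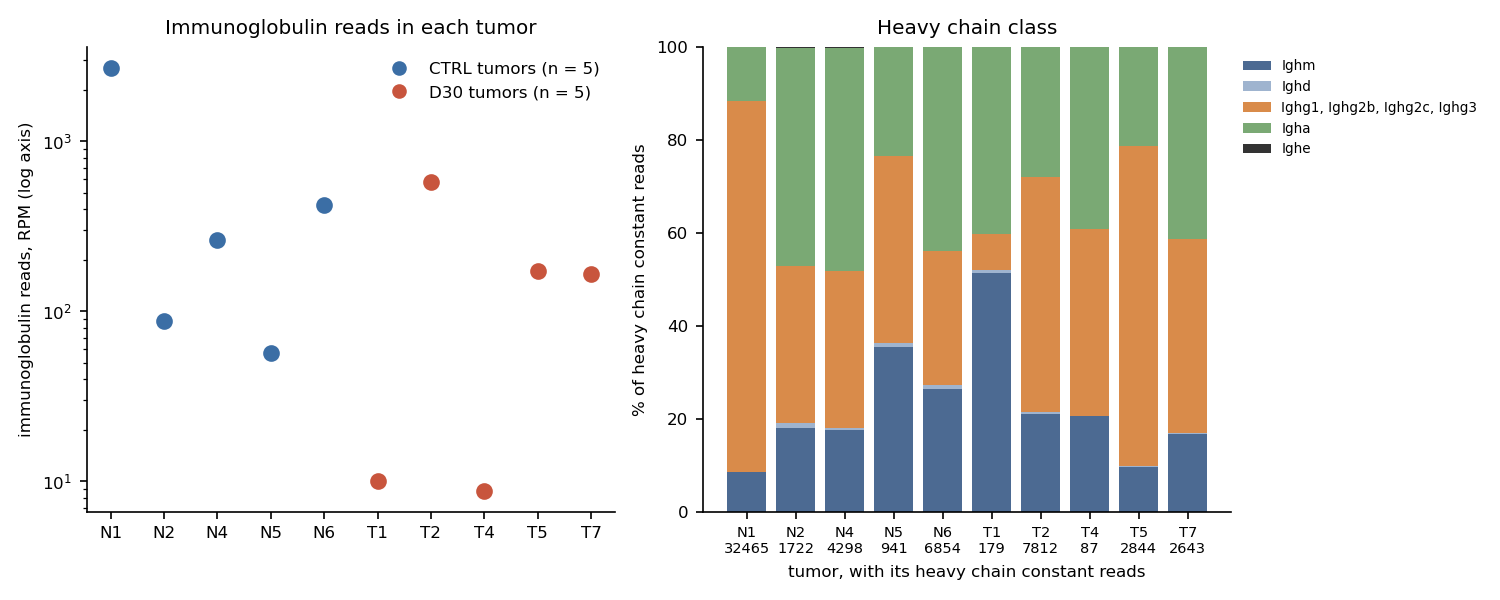
Left, immunoglobulin reads in RPM in each tumor (log axis, CTRL blue, D30 red), from 8.83 in T4 to 2698 in N1. Right, the share of each heavy chain class among heavy chain constant reads, with the number of reads under each tumor, where T1 (179 reads) has the largest Ighm share and N1 the largest IgG share.

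The variable genes used also differed from tumor to tumor. Of 100 kappa V genes, CTRL tumors had reads of 50 to 81 and D30 tumors of 13 to 67, with 13 in T4 and 17 in T1, which had 118 and 33 kappa V reads. The most read gene took 11.9% of kappa V reads in N1 (Igkv12-44), 24.6% in N2 (Igkv16-104), 8.92% in N4 (Igkv8-27), and in N5 and N6 7.77% and 8.29% (both Igkv10-96). In D30 it took 18.2% in T1 (Igkv17-121, 6 reads), 7.65% in T2 (Igkv6-23), 57.6% in T4 (Igkv12-89), 17.0% in T5 (Igkv6-32) and 10.5% in T7 (Igkv5-48). T4 thus held few kappa V reads, and 68 of its 118 came from a single gene (95% Wilson interval 48.6 to 66.2%). The groups differed by 9.90 percentage points (two-sided exact permutation p = 0.397, adjusted p = 0.794), and by 1.04 without T4. V genes are near copies of one another, so reads may have been split or lost among them in the authors' counting.

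Of 17219 genes outside the lists that averaged 10 normalized counts or more, the 5 whose log2 levels were most like the mean standardized level of the 9 genes were all immunoglobulin V genes. These were Igkv1-117 (r = 0.965), Ighv1-12 (0.935), Ighv3-6 (0.934), Ighv14-3 (0.924) and Igkv17-127 (0.917), each over 10 tumors and as a description. Igkc and Ighm are among the 9 genes and share transcripts with V segments, so the high rank of V genes was partly built in.

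Other genes of B cells were read from lists compiled by hand. The median log2 fold change of each list is set against that of all tested genes (-0.06). Counts in the lists stand against the 2.76% of all tested genes that passed limma's adjusted test and the 17.3% at an unadjusted p under 0.05. Of 19 other surface genes, 0 passed limma's adjusted test (1 higher and 3 lower at an unadjusted p under 0.05) and the median log2 fold change was -0.47. Cd22, an inhibitory coreceptor of B cells, had the smallest p, with 129 ± 26.0 normalized counts in CTRL and 65.3 ± 27.0 in D30 (SD, n = 5 each, log2 fold change -1.02, limma adjusted p = 0.111). Of 11 B cell transcription factors, 0 passed (0 higher and 1 lower at an unadjusted p under 0.05) and the median was -0.54. Ikzf3 (Aiolos), which restrains B cell activation, had the smallest p, with 30.0 ± 13.8 and 13.9 ± 17.7 (SD, n = 5 each, log2 fold change -1.82, limma adjusted p = 0.275).

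Signalling genes downstream of the antigen receptor held the only calls among the B lineage lists. Of 16 genes, 2 passed limma's adjusted test, both lower in D30, against 2.76% of all tested genes. At an unadjusted p under 0.05, 5 were lower and 0 higher, against 17.3% of all tested genes, and the median log2 fold change was -0.43. Rasgrp3, a Ras activator of B cells that endothelial cells also use, was at 2443 normalized counts in N1, 3716 in N2, 2587 in N4, 2616 in N5 and 2284 in N6. Its level was 912 in T1, 881 in T2, 243 in T4, 869 in T5 and 758 in T7, below every CTRL tumor (log2 fold change -2.02, SE 0.334, limma adjusted p = 0.0068). Cd79a stood at only 12.4 to 83.9 normalized counts in CTRL, and which cells held the Rasgrp3 transcripts was not tested. Bank1, a scaffold protein of B cell signalling, ran from 42.6 to 93.6 normalized counts in CTRL and from 6.87 to 24.3 in D30, without overlap (log2 fold change -1.82, SE 0.424, limma adjusted p = 0.0375). The call for Rasgrp3 held in all 18 alternatives (limma, edgeR and DESeq2 adjusted p up to 0.0300). That for Bank1 was lost in 9, with no filter and when any tumor but T4 or T5 was left out (limma adjusted p up to 0.105, without N5).

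Of 16 other plasma cell genes tested, 0 passed limma's adjusted test (1 higher and 2 lower at an unadjusted p under 0.05) and the median log2 fold change was 0.18. Sdc1, the plasma cell marker CD138 that carcinoma cells also carry, was at 14681 to 19562 normalized counts in CTRL and 21054 to 36763 in D30 (log2 fold change 0.74, limma adjusted p = 0.0695). Of 6 germinal centre genes tested, 0 passed (1 lower at an unadjusted p under 0.05, S1pr2, log2 fold change -0.62, limma adjusted p = 0.263) and the median was -0.14. Of 10 B cell attraction and survival genes, 0 passed (3 lower at an unadjusted p under 0.05) and the median was -0.50. Ccl21a, a chemokine of lymphoid stroma, had the smallest p and ran from 2.66 to 80.0 normalized counts in CTRL and from 0 to 45.2 in D30, with 0 in T4, T5 and T7 and its D30 maximum in T1 (log2 fold change -2.84, SE 1.09, limma adjusted p = 0.198).

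**Figure D5:**
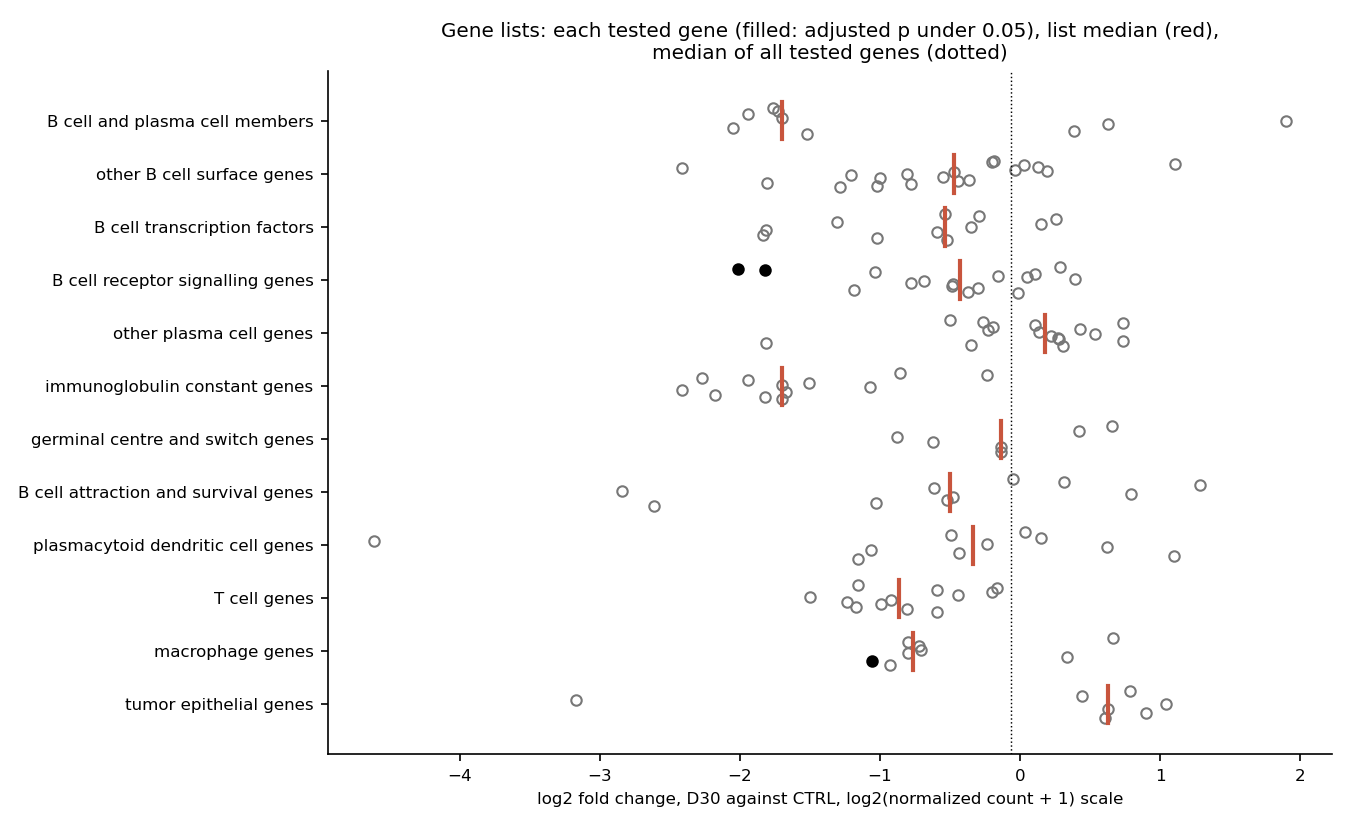
Log2 fold change of every tested gene of each list (circles, filled where the limma adjusted p is under 0.05), with the list's median in red and the median of all tested genes dotted at -0.06. The members and the immunoglobulin constant genes share a median of -1.70 with 0 calls, and the filled points in the B lineage lists are Rasgrp3 and Bank1.

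Markers of other cell types were read from lists in the same way. Among all tested genes, 2.76% passed limma's adjusted test and 17.3% had an unadjusted p under 0.05. All 12 T cell genes had a lower mean in D30, 0 passed limma's adjusted test (2 lower at an unadjusted p under 0.05), the median log2 fold change was -0.86 and their summed level was 462 to 919 normalized counts in CTRL and 328 to 533 in D30. Cd4 had the smallest p (log2 fold change -1.23, limma adjusted p = 0.0978). Of 8 macrophage genes, 1 passed and fell (0 higher and 4 lower at an unadjusted p under 0.05). This was the growth factor receptor Csf1r (log2 fold change -1.06, SE 0.256, limma adjusted p = 0.0449). The macrophage median was -0.76 and the summed level was 18566 to 31190 in CTRL and 10658 to 28129.9 in D30. Of 7 tumor epithelial genes, 0 passed (6 higher and 1 lower at an unadjusted p under 0.05), Krt18 having the smallest p (log2 fold change 0.90, limma adjusted p = 0.0715). Their median was 0.63 and their summed level, mostly of keratins, was 224629 to 355229 in CTRL and 377524 to 500074 in D30, without overlap. Singly, 2 of the 7 did not overlap, against 6.19% of all tested genes. The 1 lower gene was Epcam, an epithelial surface marker, at 15.9 to 191 normalized counts in CTRL and 0 to 62.5 in D30 (log2 fold change -3.17, limma adjusted p = 0.0990). The part of these cell types in the levels of the B cell and plasma cell genes was not tested.

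The remaining lists cover other sources of such transcripts. Of 10 plasmacytoid dendritic cell genes, 0 passed (1 higher and 2 lower at an unadjusted p under 0.05), Bst2 having the smallest p (log2 fold change 1.10, limma adjusted p = 0.0618), with a median of -0.34 and a summed level of 7600 to 9059 normalized counts in CTRL and 6969 to 10700 in D30. Most of that sum came from Tcf4, Bst2 and Runx2, with CTRL means of 3681, 1855 and 1612 normalized counts, so it does not measure the other genes. Siglech, the defining marker of these cells, stayed at or below 14.6 normalized counts. Of 7 lymph node stroma genes tested, 1 passed and rose (1 higher and 2 lower at an unadjusted p under 0.05). This was Mfge8, which macrophages and epithelia also express (log2 fold change 0.69, limma adjusted p = 0.0491). Their median was -0.80 and their summed level was 204550 to 362340 in CTRL and 202304 to 339110 in D30. Nearly all of that sum was Clu, at 197635 to 352979 in CTRL and 190069 to 326794 in D30, so it does not measure the other genes. Madcam1, a planned marker of this stroma, ran from 0.885 to 30.8 normalized counts in CTRL and from 4.11 to 12.6 in D30 (log2 fold change -1.10, limma adjusted p = 0.474). Glycam1, which marks high endothelial venules, had 4 reads in N1 and 0 in the other 9 tumors. Of 9 spleen and red cell genes, 0 passed (1 lower at an unadjusted p under 0.05, Spic, log2 fold change -2.06, limma adjusted p = 0.280), and the median was 0.78, or 0.75 without Nkx2-5, read in T5 alone. Of 11 pancreatic acinar genes, 0 passed (4 lower at an unadjusted p under 0.05), and the summed level ran from 298 to 68113 in CTRL and from 173 to 6833 in D30. Amy2b, with the smallest p, had 81 reads in N6, 44 in N2, 5 in N4 and 0 elsewhere, and the median of the other 10 was -4.48. The acinar sum was 298 in N1, the tumor richest in immunoglobulin (2698 RPM), and 343 in N5, the CTRL tumor poorest in it (56.9 RPM). It was 68113 in N6, which held 425 RPM of immunoglobulin. The calls for Csf1r and Mfge8, close to the threshold, were lost in 10 and 11 of 18 alternatives (limma adjusted p up to 0.146 and 0.141, both without N2). Their log2 fold changes kept their sign, from -1.28 to -0.71 and from 0.47 to 0.76. Csf1r kept its call only without T2 or T4 among the fits that left out 1 tumor, and Mfge8 only without T4. The part of lymphoid tissue or normal pancreas in these samples was not tested.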

How the data were processed

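RNA was measured in 10 KPC K8484 orthotopic tumors, 5 CTRL and 5 D30. The authors prepared strand-specific libraries, trimmed reads with Trim Galore, aligned them with STAR 2.7.0e and named DESeq2, as the methods and the submitters' processing notes state. The methods name hg38 and the processing notes GRCm39 as the build, while the table lists mouse identifiers. RSEM is also listed among the software of the study. The annotation, and the settings with which reads were assigned to genes, were not given in the sources used here. The authors deposited a normalized signal per gene and tumor, reads divided by a size factor. In each column 100.0% of values (checked up to 10000 reads) were whole multiples of 1 read within 0.1 read, which gave the reads and depth of each tumor. Unmapped columns numbered 0. Names and positions came from GENCODE M21 (GRCm38), which matched 94.1% of identifiers.

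limma 3.58.1 (R 4.3.3), with a mean-variance trend, was run on log2(normalized count + 1) for genes with a mean of at least 1, with Benjamini-Hochberg adjustment over all of them and an adjusted p under 0.05 as a call. The recovered reads were also tested with edgeR 4.0.16 (quasi-likelihood) and with DESeq2 1.42.0. Other pseudocounts, filters, scalings and leaving out each tumor were tried. Scripts were tested on simulated data. Shares and other single values were set against each other in exact two-sided permutation tests, and correlations used 100000 permutations (exact with 8 tumors). The labels number their replicates otherwise than the columns do, so columns were mapped to groups only. Each column is a separate tumor, and p-values measure the spread between tumors.

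Named genes were all 9 members, all immunoglobulin constant genes, the called genes of each other list (at most the 3 with the smallest p) or, with none called, the gene with the smallest p, the most read V gene of each tumor and the 5 genes outside the lists most like the members. Other genes are named where a sentence needs them, after their values were seen. Members and lists were chosen with earlier results of these data known. A level of 3 reads was taken as the floor. Some genes that meet this rule or mark these cells are not reported here.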

Additional observations from a re-analysis of the deposited data

Results flagged for a closer look

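Each of the 9 genes and 4 immunoglobulin measures was searched in both groups for a tumor whose gap to its nearest neighbour took up most of the range of its group (Dixon's 95% critical value), with gene levels on the log2(normalized count + 1) scale, immunoglobulin RPM on the log2 scale and shares in percent. Of 26 groups, 5 were marked, all of them shares of immunoglobulin reads on these scales, and about 1 in 20 would be marked with no outlier present. The kappa share of light chain reads was lowest in N6 among CTRL tumors (87.8%, the nearest 97.0%), where it rests on 4049 reads, and in T1 among D30 tumors (89.9%, the nearest 96.9%), where it rests on 69 reads. The switched share of heavy chain reads was lowest in T1 (48.0%, the nearest 78.5%), with 179 reads behind it. The most read kappa V gene took the largest share in N2 among CTRL tumors (24.6%, the nearest 11.9%), in 525 kappa V reads. It took the largest share among D30 tumors in T4 (57.6%, the nearest 18.2%), in 118 kappa V reads.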

How the results depend on the processing

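No paired analysis was possible because the columns do not carry the replicate numbers of the labels. The sources used here also describe no pairing of CTRL with D30 mice, and a legend of the study names unpaired tests. The direction of all 9 log2 fold changes held under 16 to 18 alternatives each, and 158 of 159 of these values stayed on their side of the threshold. The number of the 9 genes called was 0 under all alternatives except DESeq2, which called 1 (Pax5, log2 fold change 2.16, adjusted p = 0.0028). Over alternatives, the adjusted p of Pax5 ran from 0.0028 to 0.237, and its log2 fold change from 1.51 without T4 to 2.17 without T5. The log2 fold change of Igkc ran from -2.71 without T2 to -1.04 without N1, and that of Cd79b from 0.06 to 0.80. Leaving out each tumor in turn, the difference in kappa share ran from -1.34 percentage points (without N6) to 2.09, and was also below 0 without T4 (-0.147). That in switched share ran from -5.90 to 4.66 (without T1), and was also above 0 without N1 (1.05). The correlation of Pax5 with Igkc was 0.33 without T1 and T4, a setting chosen after seeing the data, as were the group-centred correlations and the fit without both T4 and T5. The cause of these shifts was not tested. edgeR's filter left Ms4a1 and Mzb1 untested and a filter at a mean of 10 left out Mzb1. Dividing by library size moved the median log2 fold change of all genes to -0.27. Across all tested genes limma called 678, 270 without N2, 1530 without T4 and 2105 without T4 and T5, and DESeq2 called 1833. At 29192261 to 42122304 reads per tumor, Mzb1 and Ms4a1 rested on a few reads in most tumors.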
